A study of Arabidopsis thaliana with 30 samples.

Results

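The step from 12 h to 24 h after detachment was followed in leaf explants on mock medium. It rests on 4 of the 30 libraries of the series, chosen by their labels: mock 24 h replicates 1 and 2, set against mock 12 h replicates 1 and 2. All genes were compared, and each 24 h library was also set against each 12 h library, because the libraries of 1 group stood at different phases of the circadian clock. The plants were Arabidopsis thaliana of the wild type Col-0. Seedlings grew for 12 d at 22 °C on half-strength MS medium with 1% sucrose, in cycles of 16 h light and 8 h dark. Blades of the first pair of rosette leaves were severed where they meet the petiole. They then lay at 22 °C in 24 h of light per day on B5 medium lacking sugar, which is the mock treatment, and RNA came from the tissue at the wound. The same step on medium with NPA, an inhibitor of polar auxin transport whose dose the labels do not give, was measured in 4 further libraries, NPA 24 h and NPA 12 h with 2 replicates each. The detachment, the absence of sugar and the constant light are shared by all 8 libraries. The labels give no time of day for cutting or harvest. They do not say either that the 2 replicates of a group are different plants or cultures, so the p-values cover only the spread seen between these libraries, part or all of which may be technical.

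Detached Arabidopsis leaves can form adventitious roots from cells near the vascular tissue at the wound, a process in which auxin accumulates at the cut and switches on the founder cell gene WOX11. The plant circadian clock is a loop of repressors: CCA1 and LHY are expressed around dawn, and TOC1, ELF4, LUX and GI later in the day and evening. CCA1 and LHY bind the evening element, a short motif of many evening-expressed promoters. Clock rhythms go on in constant light, so that samples taken at different phases differ in a large set of genes.

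The values were TPM, transcripts of a gene per 1000000 transcripts of its own library. They do not hold the sequencing depth, which is unknown, and no error from counting can be attached to them. Of 37686 genes, 20654 reached 1 TPM in at least 2 libraries and were tested with limma on log2(TPM + 1), in 1 fit over all 30 libraries with Benjamini-Hochberg adjustment. Genes with an adjusted p under 0.05 are those called here. Fold changes are log2 values of 24 h minus 12 h ± SE on that scale, on which changes of genes at low levels come out too small. Replicates correlated across genes with r of 0.980 at 24 h and 0.973 at 12 h, and 565 and 811 genes stood at least 2-fold apart within these pairs. The tissue label was checked on leaf markers, which were abundant: the 4 mesophyll markers (RBCS1A, LHCB1.2, CA1 and GLK1) summed to 26519 and 20499 TPM at 24 h and to 27174 and 27578 TPM at 12 h. Of 12 root endodermis and root cap markers 5 were tested, with sums between 16 and 21.2 TPM, and of 8 root hair markers 1 was tested, at 0.32 and 0.2 TPM at 24 h and 0 TPM in both 12 h libraries. In bulk tissue fewer cells of a type and less RNA per cell cannot be told apart.

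Most core clock genes stood at different levels at 24 h and 12 h and also differed within each time point. Few of them passed the test in the fit over all 30 libraries, which holds the T0 replicates, where CCA1 and LHY were 8.14 and 8.58 apart on the log2 scale. LHY, a dawn repressor of the clock, stood at 12.19 and 2.6 TPM in 24 h replicates 1 and 2, against 235 and 51.3 TPM in 12 h replicates 1 and 2 (log2 fold change -4.01 ± 1.95, adjusted p = 0.155). Its partner CCA1 stood at 12.09 and 2.07 TPM at 24 h, against 114 and 14.42 TPM at 12 h (-2.73 ± 1.83, adjusted p = 0.294). Both genes were highest in 12 h replicate 1 and lowest in 24 h replicate 2. For CCA1 the difference was -5.23 between these 2 libraries and -0.24 between 24 h replicate 1 and 12 h replicate 2.

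The evening genes ran the other way. ELF4, a subunit of the evening complex, stood at 40.48 and 123 TPM at 24 h, against 1.72 and 20.79 TPM at 12 h (3.22 ± 1.44, adjusted p = 0.126). TOC1, the repressor that closes the loop on CCA1, stood at 26.94 and 63.74 TPM at 24 h, against 6.19 and 24.71 TPM at 12 h (1.65 ± 1.05, adjusted p = 0.27). For both genes the 2 groups did not overlap, but 24 h replicate 1 lay nearer to 12 h replicate 2 than to its own replicate. GI, an evening protein of the clock and of flowering control, rose to 28.19 and 24.14 TPM at 24 h, against 1.93 and 0.38 TPM at 12 h (3.75 ± 0.84, adjusted p = 0.0114). PRR5, another repressor of CCA1, rose to 27.12 and 18.59 TPM at 24 h, against 0.75 and 5.19 TPM at 12 h (2.83 ± 0.85, adjusted p = 0.0357). Of 8 evening clock genes tested, GI and PRR5 were called higher and 0 lower, beside 10.6% of all genes called higher and 4.13% called lower. The median of the list was 2.24, beside 0.19 over all genes tested. With mock 24 h replicate 2 left out 0 of the 8 were called, and 1 was called with each of the other libraries left out in turn. Of 8 morning genes, RVE4, an activator related to LHY, was called lower (-1.55 ± 0.43, adjusted p = 0.0279) and 0 higher, with a median of -1.12. Not all morning genes were lower at 24 h. PRR7, a repressor of CCA1 and LHY, stood at 71.2 and 32.74 TPM at 24 h, against 11.86 and 0.92 TPM at 12 h (3.31 ± 1.12, adjusted p = 0.0547), with no overlap. PRR9, of the same family, stood at 10.09 and 1.4 TPM at 24 h, against 3.57 and 0.08 TPM at 12 h (1.22 ± 1.34, adjusted p = 0.533), with overlap. The RVE4 call was lost without mock 24 h replicate 2 (adjusted p = 0.203), mock 12 h replicate 1 (0.139) and mock 12 h replicate 2 (0.0698). The calls depended on T0 as well. In a fit over the 14 mock libraries, which was chosen after seeing the data and called 20.1% of all genes higher and 7.03% lower, 5 of the 8 evening genes were higher and 0 lower: PRR5, GI, ELF4 (adjusted p = 0.027), LUX (0.0368) and PRR3 (0.0246). Of the 8 morning genes PRR7 was higher there (adjusted p = 0.0467), and LHY (0.0404), RVE8 (0.0351) and RVE4 (0.00916) were lower.

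A score of clock phase, the mean log2(TPM + 1) of CCA1 and LHY minus that of TOC1 and ELF4, was -1.37 and -4.75 in mock 24 h replicates 1 and 2, against 5.22 and 0.26 in mock 12 h replicates 1 and 2. In NPA it was -5.14 and -2.43 at 24 h, against -1.03 and 5.57 at 12 h. Replicate 1 thus had the higher score in both mock groups and the lower score in both NPA groups. The T0 replicates stood farthest apart, at 7.64 and -6.29.

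**Figure D1:**
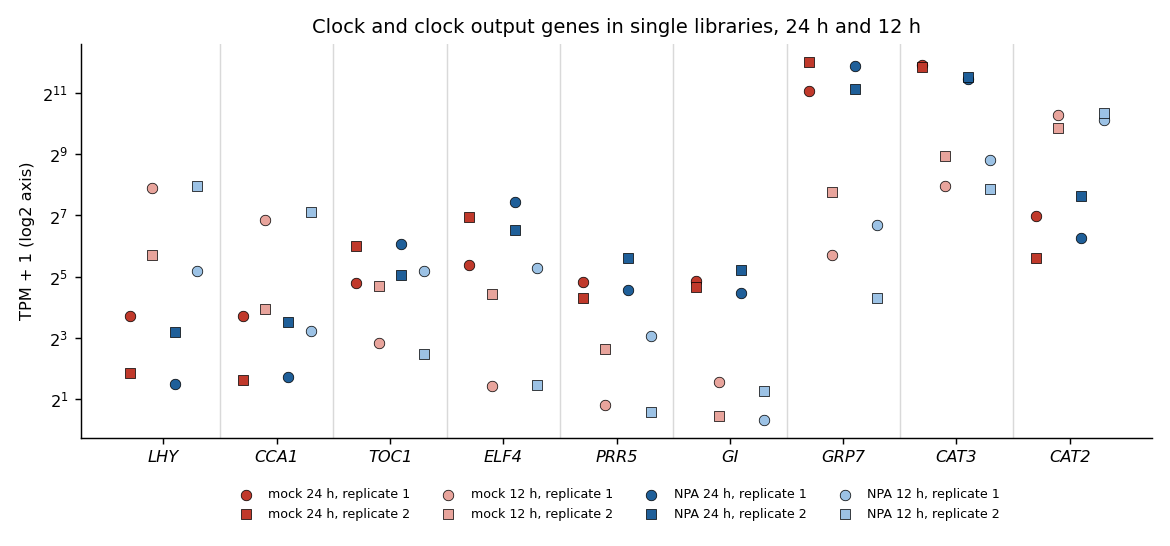
TPM + 1 on a log2 axis of 9 clock and clock output genes in the 8 single libraries of the step, mock 24 h, mock 12 h, NPA 24 h and NPA 12 h from left to right within each gene; circles are replicate 1 and squares replicate 2. LHY reaches 235 TPM in mock 12 h replicate 1 and 2.6 TPM in mock 24 h replicate 2, while GI, GRP7, CAT3 and CAT2 separate the time points by more than the replicates.

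Promoters of 5 genes called higher are shown because they hold the evening element: the clock repressor gene PRR5, the clock outputs GRP7, FKF1 and CAT3, and MEE14, which is on no clock list. GRP8, GH3.2, EARLI1 and RAP2.2, also called higher, hold it too and are not shown. The element is also before TOC1, LUX, BOA, COL2, RVE7 and BBX24, which were not called. The stretches are from the RefSeq genome TAIR10.1, read 5′ to 3′ on the strand of the gene, and end before the annotated start. Capitals mark each match to AAAATATCT or to its reverse complement AGATATTTT, with 30 bases on either side where they fit. GRP7, on the minus strand, is shown for chr2:9266558-9266663 and holds 3 matches. FKF1, on the plus strand, is shown for chr1:25508423-25508491. CAT3, on the plus strand, is shown for chr1:7142863-7142931. MEE14, on the minus strand, is shown for chr2:6922189-6922257. PRR5, on the minus strand, is shown for chr5:8358695-8358763.
GRP7: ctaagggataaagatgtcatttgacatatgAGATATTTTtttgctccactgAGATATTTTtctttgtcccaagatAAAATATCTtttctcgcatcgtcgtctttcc
FKF1: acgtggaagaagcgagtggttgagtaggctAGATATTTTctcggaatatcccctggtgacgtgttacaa
CAT3: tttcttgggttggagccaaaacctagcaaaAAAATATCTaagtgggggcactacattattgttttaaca
MEE14: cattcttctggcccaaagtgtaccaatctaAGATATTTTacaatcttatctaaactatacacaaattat
PRR5: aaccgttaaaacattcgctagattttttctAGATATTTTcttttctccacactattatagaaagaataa
A match describes these letters and is not evidence of binding.

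GRP7 (AT2G21660, chr2:9265084-9266557), which encodes a clock-regulated RNA-binding protein, had the largest rise of the genes described here. It reached 2116 and 4128 TPM at 24 h, against 51.09 and 219 TPM at 12 h (4.79 ± 1.46, adjusted p = 0.0382). Its relative GRP8 rose to 902 and 1062 TPM at 24 h, against 223 and 225 TPM at 12 h (adjusted p = 0.00723), and reads could be split between these similar genes. In both genes each 24 h library lay above each 12 h library. FKF1, a blue light receptor of the photoperiod pathway, rose to 13.78 and 23.36 TPM at 24 h, against 0.07 and 1.64 TPM at 12 h (adjusted p = 0.0206). MEE14 rose to 206 and 203 TPM at 24 h, against 1.8 and 18.92 TPM at 12 h (4.78 ± 1.31, adjusted p = 0.0247). The 2 catalase genes that run in opposite phases of the day in leaves moved apart. CAT3, of the evening catalase, rose to 3815 and 3716 TPM at 24 h, against 249.7 and 489.5 TPM at 12 h (3.42 ± 0.86, adjusted p = 0.0175). CAT2 (AT4G35090), of the morning catalase that removes the peroxide of photorespiration, fell to 125 and 47.42 TPM at 24 h, against 1239 and 932 TPM at 12 h (-3.78 ± 1.08, adjusted p = 0.0297). The same genes also differed within groups elsewhere in the series: GRP7 stood at 39.3 and 2944 TPM in the 2 T0 libraries and CAT2 at 1813 and 113 TPM. Of 25 clock output and light input genes, GRP7, GRP8, FKF1 and CAT3 were called higher and CAT2 and the light-signalling gene HY5 lower. Over all genes 10.6% were called higher and 4.13% lower. Of the 25, 0 were called in either direction when mock 24 h replicate 2 was left out. Leaving out mock 24 h replicate 1 kept 2 higher and 1 lower calls, leaving out mock 12 h replicate 1 kept 1 and 0, and leaving out mock 12 h replicate 2 kept 3 and 0. The 14 mock libraries alone gave 4 higher and 9 lower calls in this list, beside 20.1% and 7.03% of all genes.

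Over all genes, 2195 were called higher at 24 h than at 12 h (10.6% of those tested) and 853 lower (4.13%). Of these, 508 were at least 2-fold higher and 371 at least 2-fold lower. The excess of higher calls depended on the scaling. The median log2 fold change was 0.189 as deposited and 0.035 after TMM factors were applied to the TPM values, and with these factors 938 genes were called higher and 1378 lower, so that the share of higher calls was 72% as deposited and 40.5% with TMM. After quantile normalization it was 46.2%. Of the 2195 genes called higher, 938 were also called higher with TMM, and of the 853 called lower, 845 were also called lower. Without any test, both 24 h libraries lay above both 12 h libraries in 9233 genes (44.7%) and below both in 3420 (16.6%).

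The 4 libraries did not carry the calls equally. When mock 24 h replicate 2 was left out, 168 genes were called higher and 136 lower, and when mock 12 h replicate 1 was left out, 367 and 224. The counts were 767 and 265 without mock 12 h replicate 2, and 1486 and 314 without mock 24 h replicate 1. Mock 24 h replicate 2 and mock 12 h replicate 1 are also the 2 libraries farthest apart in the clock score. They are farthest apart in the TMM factor as well, at 1.107 and 0.910. This factor was 0.988 in mock 24 h replicate 1 and 0.934 in mock 12 h replicate 2. Whether clock phase or scaling had a part in the loss of calls was not tested, and they cannot be told apart here. In all 4 fits 110 genes were called higher and 87 lower. A fit to the 4 libraries alone called 0 genes, with a lowest adjusted p of 0.0629 and 5468 genes at an unadjusted p under 0.05.

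To set genes that may vary with clock phase apart from the others, 4 classes were formed from replicate differences. A gene was taken as shifted where T0 replicate 1 and NPA 12 h replicate 2, the libraries with the highest clock scores, both differed from their partners by a log2 of at least 1 in the same direction. These pairs lie outside the mock step. Of the 20654 genes, 383 were higher in T0 replicate 2, as TOC1 and ELF4 were, and are named evening-type here. Another 161 were higher in T0 replicate 1, as CCA1 and LHY were, and are named morning-type. The 3 clock lists hold 10 of the 383 and 18 of the 161. The names describe this direction, and whether clock phase set these genes apart was not tested. A further 9377 genes were steady, with replicate differences under 0.5 in T0, NPA 12 h and mock 12 h, and 10733 fell between.

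Shifted genes changed in the mock step by amounts that depended on which libraries were paired. The 383 evening-type genes had a median of 1.63 for 24 h replicate 2 minus 12 h replicate 1, and of 0.27 for 24 h replicate 1 minus 12 h replicate 2. For the 161 morning-type genes these medians were -1.31 and 0.07. The same medians over all genes were 0.27 and 0.09. Steady genes had medians of 0.24 and 0.07 in these 2 pairs, a gap that their choice limits, because it used the mock 12 h replicates of the step itself. Mock 12 h was itself split: its replicate 1 minus replicate 2 difference had a median of -1.01 in the evening-type and 1.05 in the morning-type genes.

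**Figure D2:**
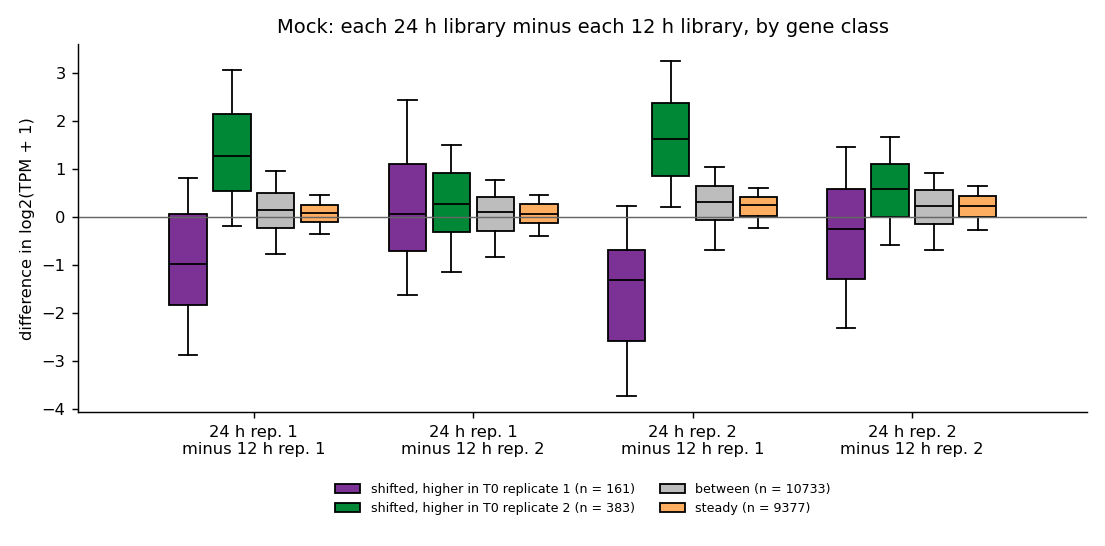
Differences in log2(TPM + 1) of each mock 24 h library minus each mock 12 h library, in 4 classes of genes; boxes span the quartiles with the median, and whiskers the 10th to 90th percentile of genes. The shifted classes have medians of 1.63 and -1.31 for 24 h replicate 2 minus 12 h replicate 1 and of 0.27 and 0.07 for 24 h replicate 1 minus 12 h replicate 2, while the steady class, chosen in part for close mock 12 h replicates, has medians between 0.07 and 0.24.

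In the fit over all 30 libraries 52 of the 383 evening-type genes were called higher (13.6%) and 2 lower, and 7 of the 161 morning-type genes were called lower (4.35%) and 2 higher. These shares are held down by construction, since the T0 and NPA 12 h pairs that chose the genes also enter their estimate of spread: the median SE was 0.63 and 0.80 in the shifted classes and 0.14 in the steady class, which was chosen for small replicate differences. The fit over the 14 mock libraries holds none of the libraries that chose the shifted genes. There 170 of the 383 were called higher (44.4%, beside 20.1% of all genes) and 48 of the 161 were called lower (29.8%, beside 7.03% of all genes). By the same construction the 30-library fit favours steady genes: of its 2195 higher calls 54 were shifted genes and 1215 steady ones, and of its 853 lower calls 9 were shifted and 384 steady. Of the 4147 higher calls from the 14 mock libraries 170 were evening-type, 3 morning-type and 1589 steady genes, and of the 1452 lower calls 5, 48 and 444. The classes do not hold all clock genes, since GI, CAT3, CAT2, GRP8 and RVE4 fell between.

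The clock score of each library was also entered as a covariate. The counts were then 1244 higher (6.02%) and 936 lower (4.53%), and 1063 of the 2195 genes called higher and 550 of the 853 called lower were called again in the same direction. With it GRP7 (2.23, adjusted p = 0.0371), FKF1 (1.86, adjusted p = 0.00454) and MEE14 (2.56, adjusted p = 0.0218) stayed called with smaller changes. The GRP7 call was lost with 2 clock covariates (1.45, adjusted p = 0.131) and with the covariate in the fit without T0 (2.27, adjusted p = 0.0501), and the MEE14 call with 2 covariates (2.62, adjusted p = 0.0504), while FKF1 was called in both fits (adjusted p = 0.0139 and 0.00413). For CAT2 the covariate gave -2.14 (adjusted p = 0.0694), and for BAM9 -1.52 (adjusted p = 0.0893), which was called with the covariate in the fit without T0 (adjusted p = 0.016). The clock genes CCA1 and TOC1, which are part of the score, changed sign under it, to 0.68 and -0.30. PRR9 (3.54, adjusted p = 0.0035) and PRR7 (3.93, adjusted p = 0.0477) became called higher with the covariate. Of the 161 morning-type genes 29 were then called higher (18%) and 7 lower (4.35%). Of the 383 evening-type genes 27 were called higher (7.05%) and 34 lower (8.88%). A call that stayed under the covariate is therefore not shown to be free of clock phase.

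Promoters were compared over 250 bases before to 50 bases after the annotated start, on both strands. The evening element AAAATATCT was in 2.96% of the 20568 promoters read, in 15.7% of the 383 evening-type shifted genes and in 5.06% of the 158 morning-type shifted genes that had a promoter read. Among genes called higher it was in 25.9% of the 54 shifted and in 2.72% of the 1215 steady ones. The G-box CACGTG, a motif of light and hormone responses, was in 8.5% of all promoters, in 14.1% of genes called lower, in 7.15% of genes called higher and in 22.8% of the morning-type shifted genes. The CCA1 binding site AAAAATCT, whose letters are not contained in the evening element, was in 7.81% of all promoters, 9.34% of those called higher and 7.98% of those called lower. The telo box AAACCCTA was in 5.46% of all promoters and 3.05% of those called lower. Site II TGGGCC, found before many ribosomal and cell cycle genes, was in 18.5% of all promoters, 24.5% of steady genes called higher and 14.1% of genes called lower. These shares are descriptions and were not tested.

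Some calls stood whichever library was left out, in fits that still hold the T0 and NPA 12 h pairs and so leave shifted genes little room to pass. Of 108 named genes that were called, 16 kept an adjusted p under 0.05 without each of the 4 libraries in turn: PLA2A, BCAT2, Prx37, GSTF2, MUM2, GH3.3, APC10, GDH1, PILS3, HB1 and NRT2.5 among those that rose, and SQP1, FADA, GAPB, CRB and CCP1 among those that fell. The other 92 lost it without at least 1 library.

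BCAT2 (AT1G10070, chr1:3288087-3290471), an aminotransferase of branched-chain amino acid breakdown, rose to 20.73 and 30.6 TPM at 24 h, against 0.49 and 0.72 TPM at 12 h (4.03 ± 0.43, adjusted p = 0.000137). All 4 single-library differences lay between 3.66 and 4.41, and its T0 replicates differed by 0.04 in size. The clock gene GI differed there by 0.06, so a small T0 difference does not set a gene apart from clock genes. In the course of the mock series BCAT2 was highest at 24 h and stood at 8.47 and 11.25 TPM at 2 d and at 1.87 and 1.84 TPM at 3 d. GSTF2 (AT4G02520), a glutathione transferase with a close copy in GSTF3 that could share its reads, rose to 405 and 669.8 TPM at 24 h, against 44.4 and 46.98 TPM at 12 h (3.48 ± 0.29, adjusted p = 1.5e-05). Later it stayed high, and at 5 d the mock libraries held 921 and 866 TPM. Prx37, a peroxidase gene, rose to 25.3 and 45.64 TPM at 24 h, against 1.23 and 2.15 TPM at 12 h (3.72 ± 0.37, adjusted p = 7.82e-05), and stood at 276 and 293 TPM at 3 d. PLA2A, a patatin-like phospholipase, rose to 43.02 and 23.82 TPM at 24 h, against 0.44 and 0.96 TPM at 12 h (4.30 ± 0.61, adjusted p = 0.00102). In these 4 genes both 24 h libraries were far above both 12 h libraries, by much more than the replicates of either time differed. PR4, of a wound- and ethylene-induced defence protein, rose to 191 and 335 TPM at 24 h, against 24.39 and 30.12 TPM at 12 h (3.18 ± 0.75, adjusted p = 0.0142), a call that was lost without mock 24 h replicate 2 (adjusted p = 0.117), mock 12 h replicate 1 (0.077) and mock 12 h replicate 2 (0.0517).

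Among the other steady genes with large rises, MUM2, a beta-galactosidase of the cell wall, rose by 2.58 ± 0.44 (adjusted p = 0.0027) and APC10, a subunit of the anaphase-promoting complex, by 1.31 ± 0.26 (adjusted p = 0.00683). The defensin gene PDF1.2c, whose reads could be split with its near copy PDF1.2, reached 29.33 and 118 TPM at 24 h, against 11.38 and 8 TPM at 12 h (2.51 ± 0.75, adjusted p = 0.0348). The acyltransferase gene AACT1 (AT5G61160) rose by 2.73 ± 0.67 (adjusted p = 0.0159), PRX52 by 1.68 ± 0.37 and the chloroplast chaperone gene J8 by 1.66 ± 0.45. AZI1 rose by 1.33 ± 0.37. EARLI1, a similar gene of the same lipid-transfer-like family, which could share reads with AZI1 and was not among the steady genes, rose by 1.37 ± 0.37. It reached 2541 and 2005 TPM at 24 h, against 769 and 994 TPM at 12 h. PDF1.2c, AACT1, PRX52, J8, AZI1 and EARLI1 were not called without mock 24 h replicate 2 (adjusted p between 0.0557 and 0.325).

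The deepest fall among the genes described here was in CSLA01 (AT4G16590, chr4:9345150-9349258), which encodes a glucomannan synthase of the cellulose synthase-like family. It fell to 0.32 and 4.12 TPM at 24 h, against 199 and 205 TPM at 12 h (-6.28 ± 1.39, adjusted p = 0.011). Both 24 h libraries lay far below both 12 h libraries, with single differences of -5.28 to -7.28. Without mock 24 h replicate 1 and without either 12 h library its adjusted p was 0.0598, 0.0597 and 0.0502. CSLA01 was listed at 0.03 and 0 TPM at T0 and stood at 58.33 and 167 TPM at 6 h in mock, so that 12 h was its highest time. SQP1, a gene of the squalene epoxidase family, fell to 7.68 and 10.27 TPM at 24 h, against 173 and 156 TPM at 12 h (-4.06 ± 0.64, adjusted p = 0.00182). Its levels had also differed between the T0 replicates, at 254 and 35.87 TPM, and between the mock 6 h replicates, at 45 and 125 TPM. FADA, a plastid fatty acid desaturase, fell to 9.48 and 11.22 TPM at 24 h, against 75.46 and 75.71 TPM at 12 h (-2.76 ± 0.54, adjusted p = 0.00683), and differed at T0 as well, at 176 and 33.73 TPM. D27, an isomerase of strigolactone synthesis, fell to 3.07 and 1.55 TPM at 24 h, against 22.35 and 24.72 TPM at 12 h (-2.93 ± 0.56, adjusted p = 0.00577; 0.0687 without mock 24 h replicate 2). SQP1, FADA and D27 thus fell in each pairing of single libraries and were yet unequal at T0, where the clock scores of the replicates differed most.

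RD20, a calcium-binding caleosin gene induced by drought, fell by 3.15 on the log2 scale (adjusted p = 0.0248), and the peptidase-like gene scpl10 by 2.99 (adjusted p = 0.0497). Steady genes that fell were LTP6, a lipid transfer protein gene (-2.21 ± 0.61), KAT5, a thiolase of fatty acid breakdown (-1.81 ± 0.48), AFP3, a regulator of abscisic acid signalling (-1.74 ± 0.48), FBH3, a transcription factor gene (-1.32 ± 0.43), JAZ9, a repressor of jasmonate signalling (-1.21 ± 0.30), and PnsB1, a subunit of the chloroplast NDH complex (-1.18 ± 0.24). None of these 8 calls, RD20 and scpl10 included, was kept without each of the 4 libraries in turn, and with mock 24 h replicate 2 left out their adjusted p lay between 0.0693 and 0.174. CRB, a chloroplast RNA-binding protein gene, fell to 506 and 431 TPM at 24 h, against 1119 and 1302 TPM at 12 h (-1.37 ± 0.23, adjusted p = 0.00247), and kept its call in each such fit.

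**Figure D3:**
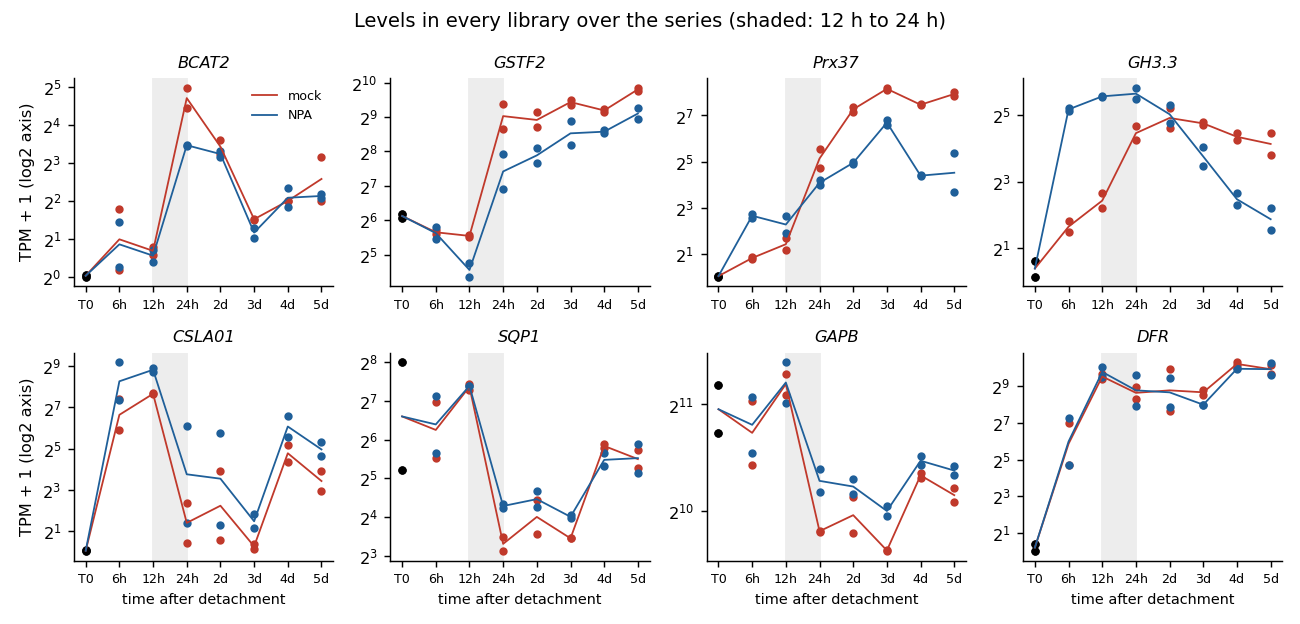
TPM + 1 on log2 axes of 8 genes in every library from T0 to 5 d, with lines through the mean of the log2 values of mock and NPA; T0 is shared and drawn in black, and the 12 h to 24 h step is shaded. BCAT2 peaks at 24 h (20.73 and 30.6 TPM in mock), GSTF2 and Prx37 stay high afterwards, CSLA01, SQP1 and GAPB drop at 24 h, and DFR, an anthocyanin enzyme gene, stands at 317 and 503 TPM in mock 24 h, against 808 and 682 TPM in mock 12 h.

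Of 45 photosynthesis and antenna genes tested, 13 were called lower (beside 4.13% of all genes) and 0 higher, with a median of 0.04. The list was split by function after its values were seen, so the counts of its 2 sections describe these values and test nothing. Of 12 carbon fixation genes, carbonic anhydrase included, 10 were called lower, with a median of -1.25, and of 33 photosystem, electron transport and antenna genes 3 were called lower, with a median of 0.18. GAPB (AT1G42970), a subunit of the Calvin cycle glyceraldehyde-phosphate dehydrogenase, fell to 893 and 899.7 TPM at 24 h, against 2183 and 2504 TPM at 12 h (-1.38 ± 0.21, adjusted p = 0.0012). CA1, a chloroplast carbonic anhydrase, fell to 1008 and 922 TPM at 24 h, against 2882 and 4055 TPM at 12 h (-1.83 ± 0.34, adjusted p = 0.00506). FBA1, a plastid aldolase, fell to 581 and 646 TPM at 24 h, against 2768 and 2520 TPM at 12 h (-2.11 ± 0.48, adjusted p = 0.0125). In these 3 genes the groups were apart and both replicates of each time close together. RBCS2B, a Rubisco small subunit gene whose near copies could share reads, fell by 1.78 on the log2 scale and RCA, the Rubisco activase gene, by 1.60. The 12 carbon fixation genes summed to 39289 and 38033 TPM at 24 h, against 70134 and 79824 TPM at 12 h. The 33 others summed to 161185 and 99035 TPM at 24 h, against 123520 and 88119 TPM at 12 h, and these sums overlapped between the times. GAPB was the 1 of the 45 still called lower without mock 24 h replicate 2, while 6 were called without mock 12 h replicate 1, 6 without mock 12 h replicate 2 and 7 without mock 24 h replicate 1.

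The chlorophyll list had 3 of 16 genes lower (beside 4.13% of all genes) and 0 higher, with a median of -0.35. The 3 were CHLI1, a magnesium chelatase subunit (-0.57 ± 0.11), PORC (-0.49 ± 0.15) and CHLG (-0.37 ± 0.10), of which PORC and CHLG act late in the pathway. None of the 3 was called without mock 24 h replicate 2, nor without mock 12 h replicate 1.

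Of 21 starch breakdown genes tested, 5 fell (beside 4.13% of all genes) and 0 rose, with a median of 0.29. In the fit over the 14 mock libraries 5 were lower and 6 higher, beside 7.03% and 20.1% of all genes. BAM5, a beta-amylase located outside the chloroplast, fell to 17.29 and 28.07 TPM at 24 h, against 386 and 186 TPM at 12 h (-3.54 ± 0.77, adjusted p = 0.0104). BAM9, a catalytically inactive relative listed in the annotation as BMY3, fell to 8.86 and 10.78 TPM at 24 h, against 115 and 63.8 TPM at 12 h (-3.01 ± 0.93, adjusted p = 0.0395). BAM1 (-1.33 ± 0.42), LSF2 (-1.22 ± 0.28) and BAM2 (-0.89 ± 0.27) also fell. None of the 21 was called without mock 24 h replicate 2 or without mock 12 h replicate 1, 2 were called lower without mock 24 h replicate 1, and 1 without mock 12 h replicate 2. Among 16 starch synthesis genes APL4, a large subunit of ADP-glucose pyrophosphorylase, rose (1.26 ± 0.28), and APL1 (-0.44 ± 0.13) and the starch synthase gene SS3 (-0.86 ± 0.22) fell. None of these 3 was called without mock 24 h replicate 2.

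Of 21 genes induced by sugar starvation, 6 rose (beside 10.6% of all genes) and 0 fell, with a median of 0.83. In the NPA step 2 rose and 0 fell, with a median of 0.08, and this contrast between the lists was not tested. Beside BCAT2 they were GDH1, a glutamate dehydrogenase, ATG8E, of autophagy, AKINBETA1, a subunit of the SnRK1 kinase, and MCCA (0.70 ± 0.16) and IVD (0.44 ± 0.12), enzymes of leucine breakdown. GDH1 rose to 28.82 and 25.71 TPM at 24 h, against 7.39 and 9.14 TPM at 12 h (1.61 ± 0.20, adjusted p = 0.000485). ATG8E rose to 53.69 and 42.56 TPM at 24 h, against 22.07 and 19.62 TPM at 12 h (1.16 ± 0.31, adjusted p = 0.0228). Both groups were apart in each gene. Other members that mark starvation did not pass: ASN1, the dark-induced asparagine synthetase, stood at 5.06 and 0.38 TPM at 24 h, against 6.26 and 0.61 TPM at 12 h, and differed more between replicates than between times. The sugar exporter gene SWEET15 stood at 0.83 and 0.24 TPM at 24 h, against 41.72 and 14.96 TPM at 12 h (-4.12 ± 1.37, adjusted p = 0.0521). BCAT2 and GDH1 were the 2 members called without mock 24 h replicate 2 and without mock 12 h replicate 1. With mock 24 h replicate 1 left out 3 were called, and with mock 12 h replicate 2 left out, 4.

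Flavonoid and anthocyanin genes had a median of -1.04, but 3 of 29 were called lower: UGT78D1, a flavonol glycosyltransferase (-1.01 ± 0.32), and the regulators MYB12 (-0.97 ± 0.31) and EGL3 (-0.93 ± 0.23). LBD38, a repressor of the pathway, was the 1 gene called higher (0.76 ± 0.24). The shares over all genes in this fit were 4.13% lower and 10.6% higher. In 21 of the 29 both 24 h libraries lay below both 12 h libraries, beside 16.6% of all genes. CHS, the first enzyme of the branch, stood at 497 and 841 TPM at 24 h, against 2525 and 2244 TPM at 12 h (-1.88 ± 1.14, adjusted p = 0.247). F3H stood at 72.08 and 157 TPM at 24 h, against 1139 and 864 TPM at 12 h (-3.21 ± 1.36, adjusted p = 0.109). Both also differed within other groups, with CHS at 409 and 7.29 TPM in the T0 replicates and at 1191 and 333 TPM in the mock 2 d replicates. In the fit over the 28 libraries other than T0, 12 of the 29 were called lower and 1 higher. That fit called 7.39% of all genes lower and 22% higher. No member was called when mock 24 h replicate 1, mock 24 h replicate 2, mock 12 h replicate 1 or mock 12 h replicate 2 was left out.

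Of 17 auxin synthesis genes 7 were called higher (beside 10.6% of all genes) and 0 lower, with a median of 0.36. They included 4 genes of tryptophan synthesis, which supplies the precursor of auxin. TSB1, a beta subunit of tryptophan synthase, rose to 281 and 403 TPM at 24 h, against 135 and 158 TPM at 12 h (adjusted p = 0.0262). TSA1 (AT3G54640), the alpha subunit, rose to 210.1 and 377 TPM at 24 h, against 155 and 130.2 TPM at 12 h (0.98 ± 0.24, adjusted p = 0.0158). ASA1, the anthranilate synthase subunit that sets the flux, rose to 56.6 and 72 TPM at 24 h, against 29.16 and 34.12 TPM at 12 h (0.99 ± 0.27, adjusted p = 0.0241), and ASB1 rose by 0.82 ± 0.19. For TSB1, TSA1 and ASA1 both 24 h libraries were above both 12 h libraries, with replicate 2 the higher at 24 h. TAA1 (0.83 ± 0.27) and YUC5 (0.92 ± 0.28), of the main route from tryptophan to auxin, also rose, at levels under 5 TPM. The nitrilase gene NIT2 rose by 1.90 ± 0.48, while its near copy NIT1 stood at 1188 and 987 TPM at 24 h, against 1988 and 1856 TPM at 12 h (adjusted p = 0.0664), and reads could be split between them. Of the 17, 0 were called without mock 24 h replicate 2 and 0 without mock 12 h replicate 1, 4 were called higher without mock 24 h replicate 1, and 1 without mock 12 h replicate 2.

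Of 34 auxin response genes 4 rose, a share near the 10.6% of all genes, and 0 fell, with a median of 0.09 beside 0.19 over all genes. GH3.3 (AT2G23170, chr2:9863855-9866562), which conjugates auxin to amino acids and is itself induced by auxin, rose to 17.93 and 24.55 TPM at 24 h, against 3.63 and 5.29 TPM at 12 h (2.03 ± 0.29, adjusted p = 0.00108). Both 24 h libraries were well above both 12 h libraries. In mock it had stood at 1.81 and 2.5 TPM at 6 h, and it stood at 23.36 and 36.37 TPM at 2 d. Its relative GH3.2 (1.67 ± 0.45), the repressor gene IAA29 (1.46 ± 0.34) and the auxin response factor gene ARF19 (0.83 ± 0.22) also rose. GH3.3 was the member called without mock 24 h replicate 2 and the member called without mock 12 h replicate 1, whereas 3 were called without either of the other 2 libraries. Of 21 auxin transport genes PILS3 (0.72 ± 0.13), ABCB19 (0.72 ± 0.21) and PIN4 (0.69 ± 0.22) rose and 0 fell, and PILS3 was the 1 called without each of the 4 libraries.

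Of 17 tested root founder and primordium genes, 1 was called higher and 0 lower, beside 10.6% and 4.13% of all genes. The 1 called was WOX11, which rose to 2.08 and 3.94 TPM at 24 h, against 1.07 and 1.54 TPM at 12 h (0.77 ± 0.20, adjusted p = 0.0203). The call was lost without mock 24 h replicate 2 (adjusted p = 0.254) and without mock 12 h replicate 1 (0.137). LBD16, which acts downstream of WOX11, stood at 3.17 and 3.77 TPM at 24 h, against 3.19 and 4.2 TPM at 12 h (-0.07 ± 0.22, adjusted p = 0.862). The list median was 0.00. Another 9 of its 26 matched entries did not reach the level for testing.

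Of 47 cell cycle genes 9 were called higher (beside 10.6% of all genes) and 1 lower, with a median of 0.41. Of 6 MCM genes, which encode the replicative helicase, 4 were called. The helicase subunits MCM2, MCM3, MCM4 and MCM7 rose by 0.75 to 0.86, and the loading factors CDC6 (1.16 ± 0.27), CDT1A (0.69 ± 0.19) and ORC2 (0.69 ± 0.20) rose with them. MCM4 rose to 9.65 and 11.67 TPM at 24 h, against 5.93 and 5.9 TPM at 12 h (0.75 ± 0.15, adjusted p = 0.00731). CDC6 rose to 3.76 and 4.65 TPM at 24 h, against 1.16 and 1.49 TPM at 12 h (adjusted p = 0.0142). In each of the 6 MCM genes of the list both 24 h libraries lay above both 12 h libraries, beside 44.7% of all genes. CYCB2;2, a mitotic cyclin gene (1.00 ± 0.22), and HINKEL, a kinesin gene of cytokinesis (0.70 ± 0.18), rose too. CYCB1;1, a common marker of division, stood at 1.89 and 2.63 TPM at 24 h, against 1.24 and 2.01 TPM at 12 h, with overlapping libraries (0.32 ± 0.25, adjusted p = 0.368). The G1 cyclin gene CYCD3;2 fell (-0.57 ± 0.15). Leaving out mock 24 h replicate 2 left 0 of the 47 called, leaving out mock 12 h replicate 1 left 1 higher, leaving out mock 12 h replicate 2 left 6 higher and 1 lower, and leaving out mock 24 h replicate 1 left 9 higher. Of 24 ribosome biogenesis genes 2 were called higher (beside 10.6% of all genes) and 0 lower, with a median of 0.37. In the NPA step 10 were called higher, beside 9.21% of all genes there.

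**Figure D4:**
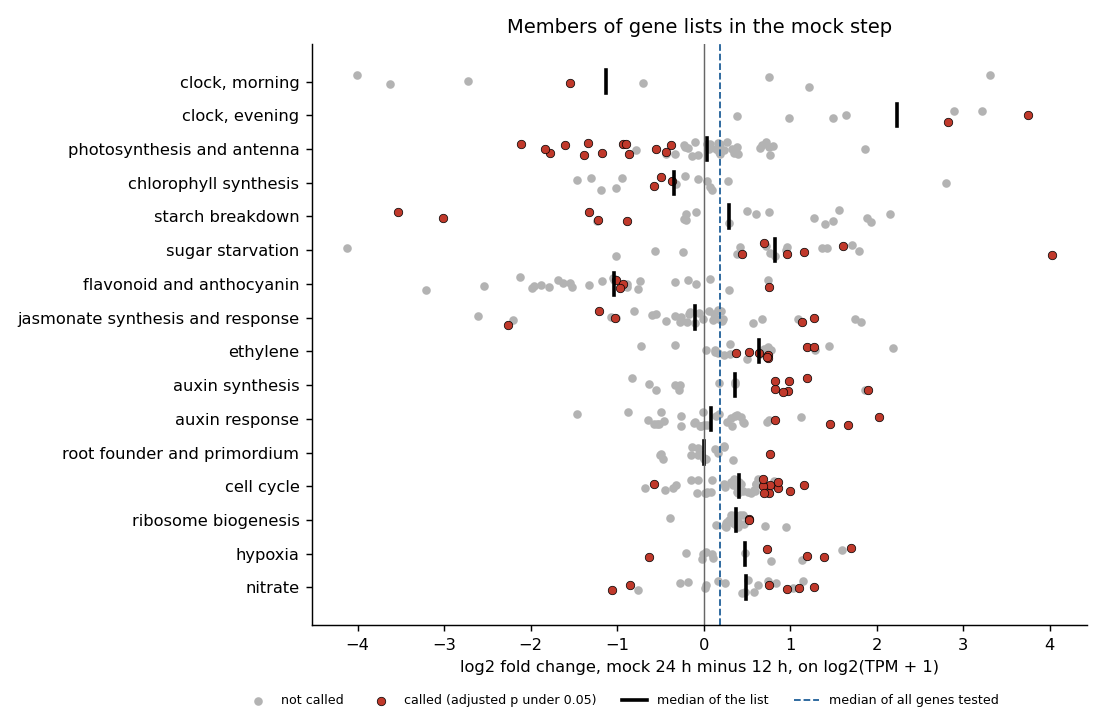
Log2 fold changes of mock 24 h minus 12 h for the tested members of 16 gene lists; red points were called, black bars are list medians, and the dashed line is the median of all genes tested (0.19). The flavonoid list has a median of -1.04 with 3 of 29 members called lower (beside 4.13% of all genes). The 6 called members of the sugar starvation list, of 21 tested, lie to the right (beside 10.6% of all genes called higher).

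Of 25 ethylene genes 8 were called higher (beside 10.6% of all genes) and 0 lower, with a median of 0.64. The 8 span the pathway: the synthesis gene ACS8 (0.74 ± 0.18), the receptor genes ETR2 (adjusted p = 0.0341) and ERS1 (0.74 ± 0.23), the kinase gene CTR1 (0.64 ± 0.16), EIN2 (0.37 ± 0.11), the transcription factor genes EIN3 (0.52 ± 0.15) and EIL1 (0.73 ± 0.16), and their target ERF1 (1.28 ± 0.35). EIL1 rose to 49.53 and 52.27 TPM at 24 h, against 30.79 and 29.99 TPM at 12 h (adjusted p = 0.0105), with both replicates of each time close. With TMM factors 3 genes of the list were called higher, beside 4.54% of all genes. No gene of the list was called without mock 24 h replicate 2 or without mock 12 h replicate 1, 1 was called without mock 12 h replicate 2, and 3 without mock 24 h replicate 1.

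Of 15 hypoxia genes 4 rose (beside 10.6% of all genes) and 1 fell (beside 4.13%), with a median of 0.48. HB1, a haemoglobin gene, rose to 4.54 and 5.66 TPM at 24 h, against 0.71 and 1.05 TPM at 12 h (1.70 ± 0.26, adjusted p = 0.00147), with no overlap. LBD41 (1.39 ± 0.33), the ethylene receptor gene ETR2 and the regulator RAP2.2 (0.73 ± 0.15) rose, and the sucrose synthase gene SUS1 fell (-0.63 ± 0.15). HB1 was the 1 member called in all 4 fits without a library. Of 22 nitrate genes 4 rose and 2 fell (median 0.49), beside 10.6% and 4.13% of all genes. The transporter gene NRT2.5 rose to 2.06 and 2.17 TPM at 24 h, against 0.42 and 0.48 TPM at 12 h (adjusted p = 0.00196). The chloroplast genes of ammonium assimilation GLU1 (-1.06 ± 0.26) and GLN2 (-0.85 ± 0.16) fell, while GLT1, of the other form of glutamate synthase, rose (1.27 ± 0.33). NRT2.5 was the 1 nitrate gene called in all 4 fits without a library.

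Other hormone and stress lists had few calls on both sides, beside 10.6% of all genes called higher and 4.13% lower. Of 35 jasmonate genes AOC4 (1.14 ± 0.34) and ERF1 rose and JAZ9, JMT (-2.26 ± 0.54) and CYP94B1 (-1.03 ± 0.27) fell, with a median of -0.10. Of 34 abscisic acid genes 4 rose, among them RD29A (1.77 ± 0.50) and the receptor genes PYL5 (1.28 ± 0.40) and PYL6 (1.21 ± 0.35), and 2 fell, the phosphatase gene HAB1 (-1.91 ± 0.55) and CYP707A4 (-1.21 ± 0.37), with a median of -0.07. Of 16 cold factors CBF3 (1.41 ± 0.38), which has near copies, and GOLS3 (0.98 ± 0.28) rose and 0 fell (median 1.11). Of 28 cytokinin genes CRF2 (0.89 ± 0.26), CRF6 (0.72 ± 0.22) and IPT7 (0.65 ± 0.16) rose and 0 fell. Of 42 wall loosening genes 3 rose, led by EXPA8 (1.99 ± 0.57) and XTH4 (1.27 ± 0.33), and 3 fell, led by EXLB1 (-1.24 ± 0.37) and EXLA2 (-1.03 ± 0.33), with EXPA10 as the third. Of 18 heat shock genes BAG6 (1.04 ± 0.28) and HSP18.2 (0.87 ± 0.22) rose, and of 27 salicylate genes 0 were called. These lists had 0 members called in all 4 fits without a library.

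Markers of other cell types had few calls, beside 10.6% of all genes called higher and 4.13% lower. Among 15 xylem markers MYB46 (-0.91 ± 0.18, adjusted p = 0.00683) and MYB83 (-0.59 ± 0.16, adjusted p = 0.0251), regulators of secondary walls, fell, and the list summed to 195 and 229 TPM at 24 h, against 219 and 239 TPM at 12 h. Its median was -0.35, and in 8 of the 15 both 24 h libraries lay below both 12 h libraries, beside 16.6% of all genes. In NPA 9 of the 15 were called lower, beside 3.75% of all genes there, with a median of -0.80. Among 10 phloem markers NEN4 (0.64 ± 0.20) and PP2-B1 (0.57 ± 0.17) rose, and the sums were 502 and 529.5 TPM at 24 h, against 417 and 462 TPM at 12 h. Of 9 cambium, 11 stomatal lineage and 6 epidermis markers 0 were called, although the epidermis markers summed to 1801 and 1679 TPM at 24 h, against 2515 and 2241 TPM at 12 h, without overlap. Of 4 mesophyll markers CA1 was called lower. None of the MYB46, MYB83, NEN4, PP2-B1 and CA1 calls was kept without mock 24 h replicate 2, with adjusted p of 0.0828, 0.219, 0.186, 0.114 and 0.0524. The part of these cell types in the changes above was not tested.

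The scaling mattered for lists with small rises, as it did for all genes. With TMM factors 4.54% of all genes were called higher and 6.67% lower, beside 10.6% and 4.13% as deposited. Of the 9377 steady genes 407 were then called higher and 732 lower, beside 1215 and 384 as deposited. Single genes described above lost their call with these factors, among them PRR5 (adjusted p = 0.0559), AZI1 (0.0573), J8 (0.0515), PDF1.2c (0.0515) and scpl10 (0.052). With TMM factors 0 of 24 ribosome biogenesis genes, 0 of 10 phloem markers, 1 of 21 auxin transport genes, 1 of 34 abscisic acid genes, 1 of 28 cytokinin genes, 1 of 42 wall loosening genes, 1 of 18 heat shock genes and 2 of 22 nitrate genes were called higher, and LBD38 of the flavonoid list was not. The median of the photosynthesis and antenna list was then -0.14 and that of the auxin response list -0.08, both of the other sign than as deposited. The carbon fixation genes had a median of -1.43, with 11 of 12 called lower, and the cell cycle list had 9 higher calls and 1 lower call with a median of 0.27.

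The step on NPA medium was measured in libraries that the mock step does not use, with polar auxin transport inhibited. Both steps were tested in the same fit with a common estimate of spread for each gene. Genes with little spread therefore tend to be called in both, and the shared calls below are not independent. There 1902 genes were called higher (9.21%) and 774 lower (3.75%). Of the 2195 genes called higher in mock, 1070 were called higher in NPA, which is 48.7% of the mock calls and 56.3% of the NPA calls. For lower calls 471 were shared, 55.2% of the mock and 60.9% of the NPA calls. Over 20654 genes the fold changes of both steps correlated with r of 0.79, as a description across genes, which are not independent replicates. The clock lists had close medians in both: the evening list had a median of 2.41 in NPA and 2.24 in mock, and the morning list -1.14 and -1.12. Of the 110 genes called higher in all 4 fits without a library, 93 were called higher in NPA, and of the 87 called lower 81 were.

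**Figure D5:**
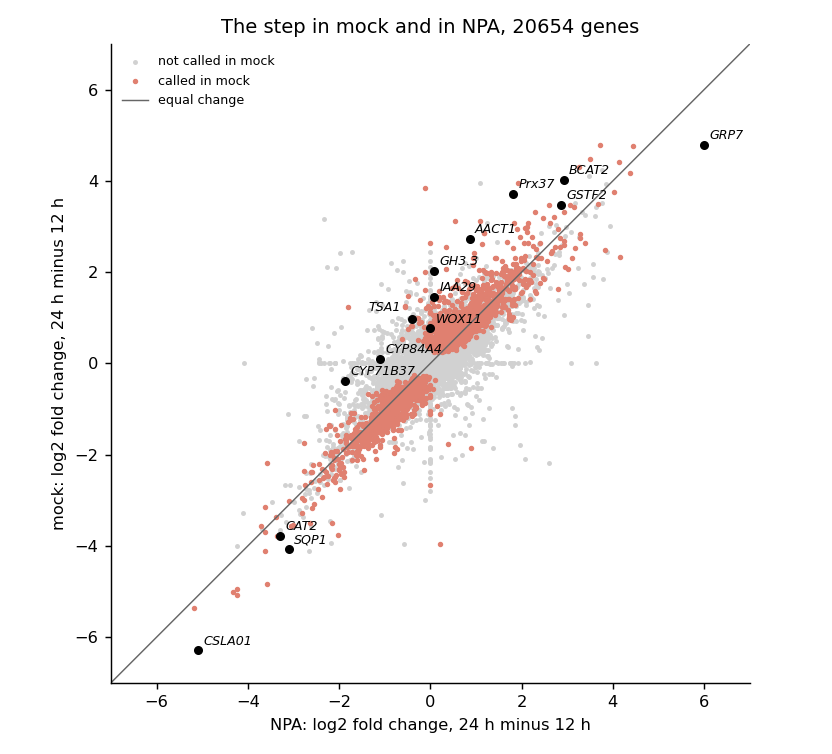
Log2 fold change of 24 h minus 12 h in mock (vertical) against NPA (horizontal) for the genes tested, with genes called in mock in red and the line of equal change. Labelled genes are black: CAT2 and GSTF2 lie near the line, GH3.3 (2.03 in mock and 0.08 in NPA), IAA29 and TSA1 lie above it, and CYP84A4 and CYP71B37 are the 2 genes whose difference was called.

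A direct test of the difference, the NPA step minus the mock step, called 0 genes higher and 2 lower, with 509 genes at an unadjusted p under 0.05. The 2 are cytochrome P450 genes, CYP84A4 (adjusted p = 0.0275) and CYP71B37 (adjusted p = 0.0398). CYP71B37 had changes of -1.86 in NPA and -0.38 in mock, a difference of -1.49 ± 0.22. Both genes stood at low levels, and with a pseudocount of 0.1 the test called 0 genes. GH3.3 stood at 43.34 and 55.45 TPM in NPA 24 h, against 45.5 and 47.11 TPM in NPA 12 h, so it was already above the mock 24 h level at 12 h. Its difference was -1.95 ± 0.41 with an unadjusted p of 0.000201 and an adjusted p of 0.592, so it is not shown to differ. For TSA1 the difference was -1.39 ± 0.34 (adjusted p = 0.957) and for ASA1 -1.25 ± 0.38 (adjusted p = 1). In the auxin synthesis list 2 genes were called higher and 4 lower in NPA, beside 7 and 0 in mock, and this contrast between the lists was not itself tested. WOX11 was listed at 0 TPM in each of the 4 NPA libraries.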

How the data were processed

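Leaf explant RNA was profiled in 30 libraries of 15 groups of 2. Per the submitters' processing notes, the tools were RSEM 1.3.2, STAR 2.7.2b and Trim Galore 0.5.0, and the build was TAIR10; their order, settings and library strandedness are not given in the sources used here. The authors deposited TPM values per gene in a mock and an NPA table, whose T0 columns were identical and counted once. TPM hold no counts, so depth and counting error are unknown. Groups came from sample titles.

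Genes with at least 1 TPM in at least 2 libraries were fitted as log2(TPM + 1) with limma 3.58.1 in R 4.3.3 (lmFit, eBayes with trend, 15 residual degrees of freedom), without further scaling; tests were two-sided. The lists and members were chosen with earlier results of these data known. Of 799 entries in 33 lists, 741 matched the annotation TAIR10.1 by symbol, 18 were second names and 40 were left out; symbols held by 2 loci carry the locus. Named genes were 10 clock genes, the 10 highest and 10 lowest called changes with libraries that do not overlap, a mean of at least 10 TPM in the higher group and a symbol, the same among steady genes, for each list at most 4 of its called members, by size of change, and 7 further genes; GRP8, HY5, CHS and other members beyond these were named after their values were seen. The test was tried on simulated data. Alternatives were a pseudocount of 0.1 or of 5, dropping the filter, keeping genes with a mean of 5 TPM or more, TMM and quantile scaling, rescaling without organelle genes, no trend, other sets of libraries, a replicate block, clock covariates, a test against a log2 fold change of 1, and leaving out each library. Where that leaves a group with 1 library, it is assumed to vary like the others.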

Additional observations from a re-analysis of the deposited data

Results flagged for a closer look

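In the limma fit 2 genes were called in a direct test of the difference between media, the NPA step minus the mock step. With a pseudocount of 0.1 that test called 0 genes. CYP71B37 fell to near 0 TPM in both media, and changes at such low levels come out too small on the log2(TPM + 1) scale. CYP71B37 stood at 0.1 and 0.02 TPM in NPA 24 h and at 2.95 and 2.76 TPM in NPA 12 h, and at 0 and 0.02 TPM in mock 24 h and 0.46 and 0.18 TPM in mock 12 h, a difference of -1.49 on the log2 scale (adjusted p = 0.0398). CYP84A4 stood at 1.52 and 1.31 TPM in NPA 24 h and at 4.19 and 4.16 TPM in NPA 12 h, and at 1.07 and 1.24 TPM in mock 24 h and 1.12 and 0.9 TPM in mock 12 h, a difference of -1.20 (adjusted p = 0.0275).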

How the results depend on the processing

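Beside 3048 genes called (2195 higher, 853 lower), the mock step had 751 (492, 259) in the fit to the 16 libraries of T0 and mock, 6066 (4540, 1526) in that to the 28 other than T0, 5599 (4147, 1452) in that to the 14 mock libraries, 1085 (611, 474) with 2 clock covariates and 4 (4, 0) at a minimum log2 fold change of 1. The libraries alone gave 0 (0, 0), without and with a replicate block. TMM gave 938 higher and 1378 lower, quantile scaling 1077 higher, 1 clock covariate 1244 higher, and the same covariate without T0 1438 lower. With 1 library left out the ranges were 304 to 1800 called, 168 to 1486 higher and 136 to 314 lower. The NPA step, 2676 called, had 1764 with 1 clock covariate and 63 to 1241 with an NPA library left out. The difference between media, 2 called, had 0 with a pseudocount of 0.1, 4 with 5, 5 with no filter, 0 at a mean TPM of 5, 1 with the replicate block and 9 with 2 clock covariates, and 0 to 7 with 1 library left out. Of 117 named genes 5 changed sign: CCA1 (0.68 with 1 clock covariate, 0.71 without T0, 0.41 with 2), LHY (0.52 with 2), TOC1 (-0.30, -0.28 and -0.01), CYCB1;1 (-0.01 with 1 and -0.02 without T0) and LBD16 (-0.22 to 0.09 with 1 library left out, 0.03 without mock 24 h replicate 1). The cause was not tested. The labels do not pair replicates; same-numbered deviations of mock 12 h and 24 h correlated with r of 0.12 over 2 pairs, and the replicate block left 109 of the named genes on the same side of the threshold. The fits to the 14 mock libraries, the replicate block within the 4 libraries and the covariate without T0 were chosen after seeing the data. TPM without depth gives no limit for genes near 0.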
